A study of Mus musculus with 16 samples.

Results

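The 8 genes Mitf, Tyr, Tyrp1, Dct, Pmel, Ttr, Best1 and Rgr, which are known from pigment epithelium and melanin-making cells, were all found in the gene table of 32166 genes and were followed through the 16 libraries of a mouse retinal organoid series. Retinal organoids are three-dimensional cultures of retinal tissue grown from pluripotent stem cells. Their cells had the genotype Nrlp-GFP, a green fluorescent protein under the promoter of Nrl, the transcription factor of rod photoreceptors, and GFP-positive cells were collected by flow sorting for polyA RNA-seq. Cells of the 7 iPSC libraries were clones made from embryonic fibroblasts of Nrl-GFP mice with doxycycline-inducible lentiviruses, one each for c-Myc, Klf4, Sox2 and Oct3/4, and cells of the 9 ESC libraries were clones from the inner cell mass of Nrl-GFP blastocysts. There were 2 iPSC and 3 ESC libraries of day 18, 1 iPSC and 3 ESC of day 21, and 2 iPSC and 1 ESC of day 25. Days 28 and 35 were each covered by 1 iPSC and 1 ESC library. Both sources went through a modified SFEBq protocol with low oxygen at the start, taurine, and retinoic acid that ended between the day 25 and the day 28 collections. Whether the libraries of a group are separate cultures is not in the labels, and every p-value then speaks only of the scatter among these samples, part of which may be technical. No pigment cell was sorted for: the gate selects cells with an active Nrl promoter.

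The retinal pigment epithelium is a single layer of pigmented cells behind the photoreceptors that renews their light-sensitive retinoid and takes up shed outer segments. Mitf is the transcription factor that sets pigment cell identity in this layer and in melanocytes, and it drives the enzymes of melanin synthesis. Tyr, tyrosinase, catalyses the first and limiting step of that synthesis, Tyrp1 and Dct act on later intermediates, and Pmel builds the fibrils on which melanin is laid down. Ttr, transthyretin, carries thyroid hormone and retinol with its binding protein, and is a leading product of both the pigment epithelium and the choroid plexus, the secretory epithelium of the brain ventricles. Best1 is a chloride channel of the pigment epithelium, and Rgr is an opsin of the pigment epithelium and Müller glia that takes part in retinoid recycling.

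By the annotation of GRCm38, Mitf lies on chromosome 6 at 97807052 to 98021349 on the plus strand, Tyr on chromosome 7 at 87424771 to 87493512 on the minus strand, and Tyrp1 on chromosome 4 at 80834123 to 80851719 on the plus strand. Dct lies on chromosome 14 at 118012790 to 118052244 and Rgr on chromosome 14 at 37034909 to 37048964, both on the minus strand. Pmel lies on chromosome 10 at 128704195 to 128720238 on the plus strand and Best1 on chromosome 19 at 9985174 to 10001633 on the minus strand. These 7 genes are protein-coding.

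The promoters of the 3 melanin enzymes are shown because the levels of these genes are set against each other across the libraries. Each run is the 250 bases before the start of the gene in RefSeq, build GRCm38.p6, written 5′ to 3′ on the strand of the gene, and capitals mark TCATGTG or its reverse complement, the core that Mitf and its relatives bind.
Tyr (chr7:87493513-87493762, minus strand): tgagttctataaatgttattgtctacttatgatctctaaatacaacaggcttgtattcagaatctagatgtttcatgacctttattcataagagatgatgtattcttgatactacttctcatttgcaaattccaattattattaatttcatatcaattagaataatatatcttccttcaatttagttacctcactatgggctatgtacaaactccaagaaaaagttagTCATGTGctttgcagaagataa
Tyrp1 (chr4:80833963-80834212, plus strand): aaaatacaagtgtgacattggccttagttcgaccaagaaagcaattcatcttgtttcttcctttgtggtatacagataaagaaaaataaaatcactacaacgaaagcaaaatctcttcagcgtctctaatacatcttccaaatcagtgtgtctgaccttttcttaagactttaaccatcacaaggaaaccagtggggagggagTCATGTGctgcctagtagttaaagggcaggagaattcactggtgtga
Dct (chr14:118052247-118052496, minus strand): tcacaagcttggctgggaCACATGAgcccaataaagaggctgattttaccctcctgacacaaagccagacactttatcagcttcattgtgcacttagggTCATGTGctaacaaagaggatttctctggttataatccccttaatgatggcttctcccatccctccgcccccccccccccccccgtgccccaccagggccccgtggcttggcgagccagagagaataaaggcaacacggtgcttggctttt
In Tyr and Tyrp1 the core lies within a shared run, AGTCATGTGCT, which is the sequence known as the M-box and whose first base was 24 bases before the start of Tyr and 49 before that of Tyrp1. On both strands AGTCATGTGCT was found in 7 of 32851 RefSeq promoter windows (0.0213%), each running from 250 bases before a start to 50 after it. Dct had the overlapping shorter TCATGTG at 151 bases before its start and on the other strand at 232, a match that 1239 of the windows (3.77%) also held. The 6 letters CATGTG, which lie inside TCATGTG, were in 14.2% of windows and CACGTG, the other E-box searched, in 7.15%. Windows were found for 6 of the 8 genes. The Rgr window held CATGTG on the reverse strand, and those of Best1 and of the 3 Mitf starts held no match to any of the 4 motifs. A match describes letters and is not a binding site.

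Levels are given in CPM, counts scaled to the library total, restored from the deposited gene table. A single estimated count was worth between 0.037 and 0.213 CPM, and 3 counts, taken as the floor, between 0.111 and 0.639 CPM depending on the depth of the library. Depths rebuilt from the deposited tables ran from 3866482 to 21889144 estimated counts. Crx, a photoreceptor transcription factor, was between 192 and 2701 CPM, but rod markers were not high in every library. Nrl itself reached 1921 CPM, and its 2 lowest values, at most 17.7 CPM, were those of the iPSC and ESC libraries labelled day 18 replicate 1. In that pair 10 rod genes summed to 249 CPM (iPSC) and 247 CPM (ESC), the rod factor Nr2e3 was 8.65 and 8.76 CPM, and Pde6b was 0.925 and 1.45 CPM. Pde6a was listed at 0 in iPSC day 18 replicate 1 and ESC day 18 replicate 3, and Cnga1 in ESC day 18 replicate 1. A pair of day 18 libraries also went against its source: Eif2s3y, a gene of the Y chromosome, was 72.0 CPM in iPSC day 18 replicate 2, by its label, and between 0.0457 and 14.6 CPM in the other 6 iPSC libraries. It was 0.703 CPM in ESC day 18 replicate 1, by its label, and between 36.0 and 114 CPM in the other 8 ESC libraries. All libraries were kept under their labels, and values without these 2 are given for some of the results only. No contrast or correlation within a source was run without them. All values describe a mixed RNA sample in which fewer cells of a type and less RNA per cell cannot be told apart.

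**Figure D1:**
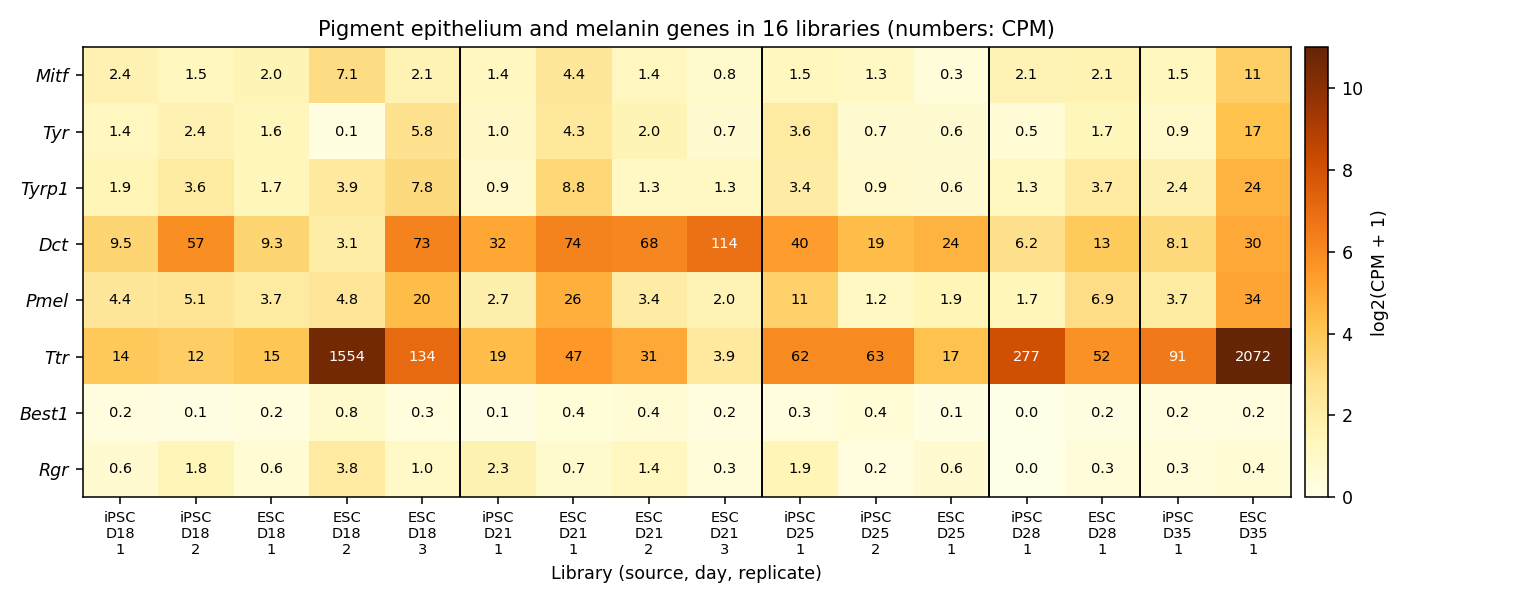
Level of the 8 genes in each of the 16 libraries. Colour gives log2(CPM + 1), numbers give CPM, and black lines separate days 18, 21, 25, 28 and 35, with iPSC libraries left of ESC libraries within a day. The ESC day 35 library was highest for Mitf, Tyr, Tyrp1, Pmel and Ttr, while Dct was highest in ESC day 21 replicate 3 at 114 CPM.

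Mitf was low in the sorted cells. It was 2.36 and 1.48 CPM in the iPSC and 1.96, 7.09 and 2.06 CPM in the ESC libraries of day 18, and 1.37 CPM in the iPSC and 4.39, 1.43 and 0.78 CPM in the ESC libraries of day 21. At day 25 it was 1.49 and 1.29 CPM in iPSC and 0.295 CPM in ESC libraries, at day 28 it was 2.07 CPM in iPSC and 2.13 CPM in ESC, and at day 35 it was 1.53 CPM in iPSC and 11.5 CPM in ESC. The 7 iPSC libraries stayed within 1.29 to 2.36 CPM, and the 3 highest values were all in ESC libraries. Otx2, a transcription factor that pigment epithelium shares with photoreceptors, had a far higher level: per transcript length, the median over the 16 libraries was 1.09 TPM (transcript level scaled by length and library total) for Mitf and 1340 TPM for Otx2.

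Nearly all estimated counts of Mitf were assigned to 1 transcript with an upstream start. Mitf-207, which begins slightly further upstream at 97807052, had 0 counts. Mitf-202, which begins at 97807058, held 96.0% of the 16 libraries' estimated counts of the gene, and it had at least 1 count in 16 of 16 libraries. Mitf-201, which begins at 97991792 beside the downstream promoter that is known as the melanocyte one, held 1.68%, a total of 10.7 estimated counts, of which 9.17 were in ESC day 35. Counts were assigned by kallisto among transcripts that share exons, so all shares are estimates. Mitf-202 is the only one annotated to the end of the gene at 98021349, and Mitf-201 ends at 98018707. Reads from the stretch beyond the shorter end can only be assigned to Mitf-202, whichever start was used. The shares therefore do not measure the use of the starts. The 100 bases before the most upstream and the most downstream RefSeq start are shown to place these transcripts, with no capitals because no motif was matched.
Upstream start (chr6:97806958-97807057, plus strand): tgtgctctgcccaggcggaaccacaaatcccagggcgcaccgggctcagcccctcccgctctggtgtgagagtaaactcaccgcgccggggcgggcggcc
Downstream start (chr6:97991683-97991782, plus strand): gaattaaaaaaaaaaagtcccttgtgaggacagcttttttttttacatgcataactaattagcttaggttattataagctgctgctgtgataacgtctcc

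Tyr, Tyrp1 and Pmel were high in the same libraries. Tyr, the tyrosinase, was 1.37 and 2.36 CPM in the iPSC and 1.62, 0.116 and 5.76 CPM in the ESC libraries of day 18, and 1.05 CPM in the iPSC and 4.28, 2.00 and 0.666 CPM in the ESC libraries of day 21. It was 3.62 and 0.703 CPM in iPSC and 0.594 CPM in ESC at day 25, 0.451 CPM in iPSC and 1.74 CPM in ESC at day 28, and 0.905 CPM in iPSC and 17.2 CPM in ESC at day 35. The ESC day 35 value was thus apart from all others, and ESC day 18 replicate 2, at 0.116 CPM, lay under its own floor of 0.456 CPM.

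Tyrp1, which acts after tyrosinase and steadies it, was 1.85 and 3.61 CPM in the iPSC and 1.74, 3.91 and 7.75 CPM in the ESC libraries of day 18, and 0.868 CPM in the iPSC and 8.84, 1.26 and 1.28 CPM in the ESC libraries of day 21. It was 3.37 and 0.852 CPM in iPSC and 0.634 CPM in ESC at day 25, 1.30 CPM in iPSC and 3.72 CPM in ESC at day 28, and 2.41 CPM in iPSC and 24.2 CPM in ESC at day 35. The order of the top 3 libraries was ESC day 35, ESC day 21 replicate 1 and ESC day 18 replicate 3. The 2 long transcripts Tyrp1-202 and Tyrp1-201 held 51.3% and 45.8% of the gene's estimated counts.

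Pmel, the fibril protein of the melanosome, was 4.43 and 5.11 CPM in the iPSC and 3.70, 4.84 and 19.7 CPM in the ESC libraries of day 18, and 2.66 CPM in the iPSC and 26.4, 3.35 and 2.05 CPM in the ESC libraries of day 21. It was 10.5 and 1.25 CPM in iPSC and 1.91 CPM in ESC at day 25, 1.75 CPM in iPSC and 6.93 CPM in ESC at day 28, and 3.65 CPM in iPSC and 34.2 CPM in ESC at day 35. The same 3 ESC libraries led. Pmel had at least 1 CPM in all 16 libraries, Tyrp1 in 13 and Tyr in 10. Per transcript length, the medians were 0.811 TPM for Tyr and 2.09 TPM for Tyrp1, and their highest values, both in ESC day 35, were 10.5 TPM and 26.9 TPM.

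Across the 16 libraries Pmel and Tyrp1 had a Pearson correlation of 0.95 and a Spearman correlation of 0.92 of log2(CPM + 1), each with a two-sided permutation p of 1e-05, the smallest that 100000 permutations can give, and an adjusted p of 0.00031 over 63 relations. Without the 2 libraries farthest from the median of Tyrp1, Pearson's r was 0.91, and it was 0.85 within the 7 iPSC and 0.96 within the 9 ESC libraries. Tyr and Pmel had r = 0.88 (permutation p = 5e-05, adjusted 0.00079) and rho = 0.80 (permutation p = 0.00043, adjusted 0.0054), with r = 0.78 without the 2 farthest. The ratio of Pmel to Tyrp1 CPM stayed between 1.24 and 3.12 while Tyrp1 itself spanned a 38.1-fold range. Tyr and Tyrp1 had r = 0.84 (permutation p = 0.00028, adjusted 0.0035) but rho = 0.61 (permutation p = 0.014, adjusted 0.067), and r was 0.58 without the 2 farthest libraries.

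Among all tested genes, those with a pattern most like the 3 melanin genes included other pigment cell genes. Gpnmb, a melanosome glycoprotein also made by macrophages, was first for Pmel (r = 0.95) and for Tyr (r = 0.93). Trpm1, a channel of melanocytes and ON bipolar cells, was among the first 3 for Tyr (r = 0.88), Tyrp1 (r = 0.91) and Pmel (r = 0.93). The others were Arg1, an arginase, for Tyr (r = 0.89) and Tinagl1 for Tyrp1 (r = 0.89), all over 16 libraries. Gpnmb was 67.8 CPM in ESC day 35 and between 0.653 and 32.3 CPM in the other 15 libraries, and Trpm1 was 50.5 CPM and between 1.04 and 20.3 CPM. The sum of 20 other melanosome genes did not follow them, with r = 0.02 for Tyr, 0.07 for Tyrp1 and -0.02 for Pmel. With the sum of 20 other pigment epithelium genes, r was 0.53, 0.71 and 0.67 in the same order. With the sum of 10 Müller glia genes it was 0.63, 0.63 and 0.65.

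Dct, which converts dopachrome, ordered the libraries differently. It was 9.51 and 57.4 CPM in the iPSC and 9.26, 3.11 and 72.6 CPM in the ESC libraries of day 18, and 32.1 CPM in the iPSC and 73.9, 67.6 and 114 CPM in the ESC libraries of day 21. It was 40.0 and 19.0 CPM in iPSC and 24.2 CPM in ESC at day 25, 6.23 CPM in iPSC and 13.3 CPM in ESC at day 28, and 8.06 CPM in iPSC and 30.5 CPM in ESC at day 35. ESC day 21 replicate 3, the highest for Dct, was 13th of the 16 for Pmel and 12th for Tyrp1.

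The ratio of Dct to Pmel CPM ran from 0.643 in ESC day 18 replicate 2 to 55.7 in ESC day 21 replicate 3, an 86.7-fold range against 2.52-fold for Pmel over Tyrp1. Dct and Tyrp1 had r = 0.18 (permutation p = 0.51, adjusted 0.75) and rho = 0.08 (permutation p = 0.77, adjusted 0.82), and r was 0.03 without the 2 farthest libraries. Dct and Tyr had r = 0.47 (permutation p = 0.064, adjusted 0.18) and rho = 0.56 (permutation p = 0.027, adjusted 0.094), with r = 0.55 without the 2 farthest libraries, 0.73 within iPSC and 0.37 within ESC. Dct and Pmel had r = 0.32 (permutation p = 0.23, adjusted 0.53) and rho = 0.27 (permutation p = 0.32, adjusted 0.48), with r = 0.52 without the 2 farthest, 0.47 within iPSC and 0.19 within ESC. The 3 genes most like Dct were Rd3l (r = 0.94), Idh3a, a subunit of a mitochondrial dehydrogenase (r = 0.90), and Lgr5, a receptor for R-spondins (r = 0.88). Rd3l was also highest in ESC day 21 replicate 3, at 35.7 CPM. The difference between the correlations of the 3 enzymes was not tested.

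**Figure D2:**
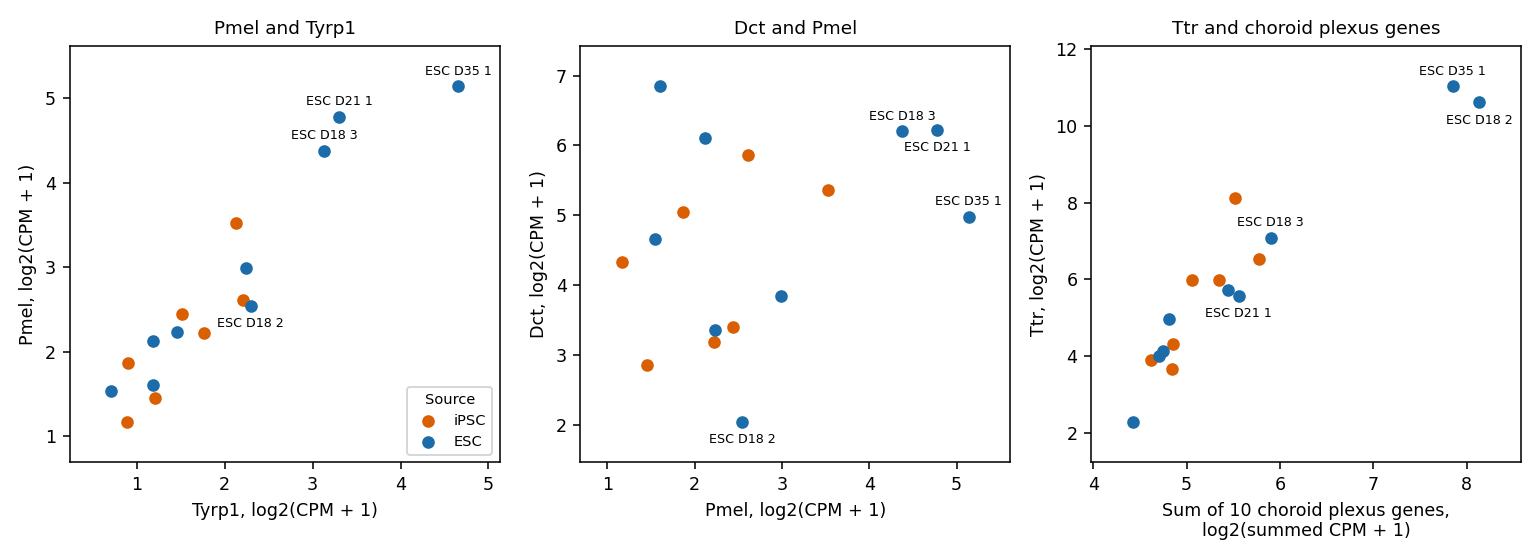
Each point is 1 library, on log2(CPM + 1) axes and coloured by source. Pmel rises with Tyrp1 (left, r = 0.95), Dct is scattered against Pmel (middle, r = 0.32), and Ttr follows the summed CPM of 10 choroid plexus genes (right, r = 0.94), with ESC D35 1 and ESC D18 2 at the upper end.

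Ttr, a protein-coding gene on the plus strand of chromosome 18 (20665280 to 20674321), had the widest spread of the 8 genes. It was 13.9 and 11.7 CPM in the iPSC and 15.3, 1554 and 134 CPM in the ESC libraries of day 18, and 18.9 CPM in the iPSC and 46.6, 30.6 and 3.92 CPM in the ESC libraries of day 21. It was 62.5 and 62.7 CPM in iPSC and 16.7 CPM in ESC at day 25, 277 CPM in iPSC and 51.7 CPM in ESC at day 28, and 91.3 CPM in iPSC and 2072 CPM in ESC at day 35. The highest library exceeded the lowest 529-fold. Its SD on log2(CPM + 1) was 2.41 over the 16 libraries, larger than that of 99.8% of tested genes, whose median SD was 0.45. Within day 18 alone the 5 libraries spanned a 133-fold range.

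A list of 10 other choroid plexus genes, which includes the chloride channel protein Clic6, the folate receptor Folr1 and the water channel Aqp1, followed Ttr. The summed level of the list was 230 CPM in ESC day 35, 281 CPM in ESC day 18 replicate 2, and between 20.5 and 58.8 CPM in the other 14 libraries. Ttr and this sum had r = 0.94 and rho = 0.91 over 16 libraries, each with a permutation p of 1e-05 and an adjusted p of 0.00031, with r = 0.88 without the 2 farthest libraries, 0.85 within iPSC and 0.98 within ESC. All 10 genes were above 0 in the 2 libraries with the most Ttr and also in most of the other 14. Htr2c was listed at 0 in 5 libraries. Of the 10 genes, 7 were higher in both of these libraries than in each of the other 14, which was so for 9 of the 20 other pigment epithelium genes and for 5.39% of tested genes.

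Clic6, for example, was 46.4 CPM in ESC day 35, 38.0 CPM in ESC day 18 replicate 2 and between 0.582 and 3.63 CPM elsewhere. Folr1 was 24.6, 27.5 and between 0.0946 and 3.58 CPM in the same order. Ttr is made by pigment epithelium as well, and the sum of 20 other pigment epithelium genes was also highest in these 2 libraries. It was 697 CPM in ESC day 35, 462 CPM in ESC day 18 replicate 2 and between 72.0 and 330 CPM in the other 14. Over all 16 libraries, Ttr and that sum had rho = 0.24 (permutation p = 0.37, adjusted 0.53) and r = 0.57 (permutation p = 0.022, adjusted 0.077), which was 0.02 without the 2 libraries. The part of either cell type in the Ttr level was not tested.

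Mitf was correlated with several of these measures. Mitf and the sum of the pigment epithelium list had r = 0.84 (permutation p = 5e-05, adjusted 0.00079) and rho = 0.81 (permutation p = 0.00019, adjusted 0.003), with r = 0.63 without the 2 farthest libraries, 0.65 within iPSC and 0.88 within ESC. Mitf and the choroid plexus sum had r = 0.85 (permutation p = 0.00045, adjusted 0.0047) and rho = 0.62 (permutation p = 0.011, adjusted 0.06), with r = 0.48 without the 2 farthest, -0.13 within iPSC and 0.89 within ESC. Mitf and Tyrp1 had r = 0.80 (permutation p = 0.00056, adjusted 0.005) and rho = 0.82 (permutation p = 0.00015, adjusted 0.003), with r = 0.70 without the 2 farthest, 0.03 within iPSC and 0.85 within ESC. Mitf and Ttr had r = 0.79 (permutation p = 0.0009, adjusted 0.0071) but rho = 0.53 (permutation p = 0.036, adjusted 0.12), and r fell to 0.38 without the same 2 libraries, so that relation rests on them. The genes most like Mitf were Ephx1, an epoxide hydrolase (r = 0.97), Sspn, sarcospan (r = 0.96), and Ggta1, a galactosyltransferase (r = 0.96). Those most like Ttr were Ccdc3 (r = 0.94), the elastic fibre protein Fbln5 (r = 0.92) and the Fc receptor Fcgrt (r = 0.92).

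ESC day 35 and ESC day 18 replicate 2 were alike in Ttr but not in Tyr or Dct. ESC day 35 was the highest of the 16 libraries for Tyr, whereas ESC day 18 replicate 2 was the lowest for both Tyr and Dct. Mitf was high in both, at 11.5 and 7.09 CPM. The ratio of Ttr to Mitf CPM was 181 in ESC day 35 and 219 in ESC day 18 replicate 2, and its median over all libraries was 33.1. The Müller glia list was 1853 CPM in ESC day 35 and 766 CPM in ESC day 18 replicate 2, against 297 to 1265 CPM in the other 14, and the ciliary margin list was 340 and 770 CPM, against 50.2 to 306 CPM.

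Best1 was at or near the limit of detection, and Rgr was low but above the floor of 3 counts in most libraries. Best1 was listed at 0 in iPSC day 28 and reached 0.774 CPM in ESC day 18 replicate 2. Its median was 0.207 CPM, and its one measured transcript had between 0 and 5 estimated counts per library. It did not reach the 1 CPM in at least 2 libraries that was asked of a tested gene. Rgr was listed at 0 in iPSC day 28, had a median of 0.612 CPM and was highest in ESC day 18 replicate 2 at 3.84 CPM, with at least 1 CPM in 6 of 16 libraries. By estimated counts rebuilt from CPM, Rgr had the most in iPSC day 18 replicate 2, at 47.6. The libraries under the floor for Rgr were ESC day 28, iPSC day 28 and replicate 2 of iPSC day 25. The genes most like Rgr were Medag, Esm1 and Cyyr1 (each r = 0.88). Rpe65, the isomerase that defines mature pigment epithelium, was listed at 0 in 15 of 16 libraries and was 0.0454 CPM in ESC day 35, where 3 counts are worth 0.163 CPM.

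The comparison of day 35 with day 18 asks whether pigment genes change as the sorted cells mature. No member was called among the 7 tested, at an adjusted p under 0.05 by limma over all 15202 tested genes, of which 7.53% were called. At an unadjusted p under 0.05 the count was also 0. In the 2 tools run on summed estimated counts, edgeR and DESeq2, only Mitf, Tyr and Tyrp1 could be tested and none was called. The median log2 fold change of the 7 genes was 0.92, beside 0.05 for all tested genes, and 5 of the 7 were positive.

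Ttr had the largest difference, with 1082 ± 1401 CPM at day 35 (SD, n = 2) and 346 ± 677 CPM at day 18 (SD, n = 5), a log2 fold change of 3.03 (SE 1.66, limma adjusted p = 0.28) on log2(CPM + 1). At day 35 its 2 libraries, 91.3 and 2072 CPM, lay below and above the 2 highest values of day 18. Tyrp1 averaged 13.3 ± 15.4 CPM at day 35 and 3.77 ± 2.44 CPM at day 18, a log2 fold change of 1.17 (SE 0.73, adjusted p = 0.35). Tyr had a log2 fold change of 1.15 (adjusted p = 0.40), Pmel of 0.92 (0.57), Mitf of 0.68 (0.51), Dct of -0.06 (0.98) and Rgr of -0.77 (0.34). For each of the 7 genes the 95% confidence interval included 0, and it reached 2.86 for Tyr, 2.74 for Tyrp1 and 2.91 for Pmel, so differences of that size lay within the intervals.

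The sources had values of opposite sign at day 35 for Tyr, Tyrp1, Pmel, Mitf and Dct, and of the same sign for Ttr and Rgr. Within iPSC, the log2 fold change of day 35 over day 18 was -0.57 for Tyr, -0.09 for Tyrp1, -0.31 for Pmel and -0.19 for Mitf, and within ESC it was 2.75 for Tyr, 2.36 for Tyrp1, 2.09 for Pmel and 1.57 for Mitf. A test of whether the sources differ in their slope over days called no member (0% of tested genes called by limma), with a lowest adjusted p of 0.62, for Tyr. That test fits a straight line over all days and is not a test of the source difference at day 35. Without the ESC day 35 library the fold changes of Tyr, Tyrp1, Pmel and Mitf were -0.48, -0.11, -0.32 and -0.46, so their positive direction rests on that library. Ttr was 2.75 within iPSC and 3.78 within ESC, and it was positive whichever single library was left out, from 1.00 without ESC day 35 to 4.95 without iPSC day 35, with a lowest adjusted p of 0.06. It was 1.83 without the 2 day 18 libraries of low Nrl, and 1.75 without the 2 day 18 libraries whose Eif2s3y goes against their source (iPSC replicate 2 and ESC replicate 1). The choroid plexus sum was 53.6 CPM in iPSC day 35 and 230 CPM in ESC day 35, against 23.6 to 281 CPM at day 18, and its part in the Ttr values was not tested.

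**Figure D3:**
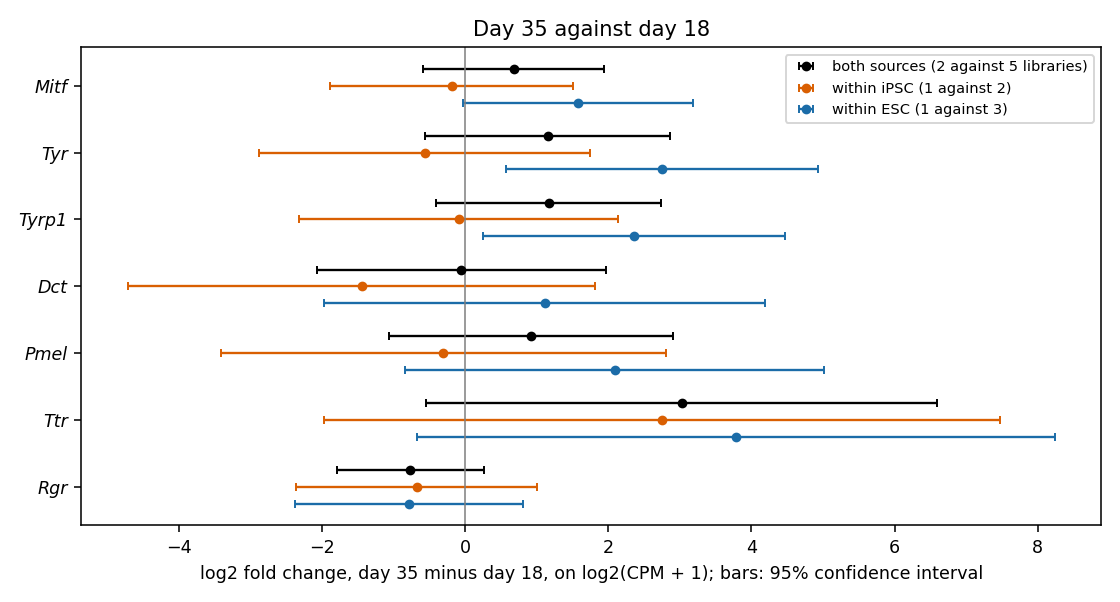
Log2 fold change of day 35 over day 18 on log2(CPM + 1), with 95% confidence intervals, for the 7 tested genes over both sources, within iPSC and within ESC. The within-source values come from 1 library against 2 (iPSC) or 3 (ESC). Their spread comes from the groups with more than 1 library, which are ESC day 18, ESC day 21, iPSC day 18 and iPSC day 25. No day 35 library contributes to that spread. Tyr, Tyrp1, Pmel and Mitf lie right of 0 within ESC and left of it within iPSC, while Ttr lies right of 0 in both.

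Across the earlier days, no member was called at day 28 (0.579% of tested genes called), day 25 (0.0395% called) or day 21 (0% called) against day 18 by limma. The smallest unadjusted p was that of Dct at day 21, the only one under 0.05 in any of the 6 comparisons. Dct averaged 71.9 ± 33.6 CPM at day 21 (SD, n = 4) and 30.4 ± 32.2 CPM at day 18 (SD, n = 5), a log2 fold change of 1.83 (SE 0.76, limma adjusted p = 0.24). All 4 day 21 values lay above the 3 lowest of day 18, and the groups overlapped. The fold change was 0.42 within iPSC and 2.52 within ESC. Both include a day 18 library whose Eif2s3y goes against its source, and neither was run without it. Dct was 57.4 CPM in that iPSC library (replicate 2) and 9.26 CPM in that ESC library (replicate 1). Over both sources the fold change was 1.32 without the 2 day 18 libraries of low Nrl. It ran from 1.17 without ESC day 18 replicate 2 to 2.36 without ESC day 18 replicate 3 when single libraries were left out. Over the other members the log2 fold changes at day 21 ran down to -1.73, the value of Ttr, whose day 18 mean rests on ESC day 18 replicate 2.

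Between the sources, no member was called (0% of tested genes called by limma), and 6 of the 7 log2 fold changes of iPSC over ESC were negative, beside a median of 0.02 for all tested genes. Ttr averaged 76.8 ± 93.3 CPM in iPSC (SD, n = 7) and 436 ± 792 CPM in ESC (SD, n = 9), a log2 fold change of -1.09 (adjusted p = 0.78). Pmel averaged 4.20 ± 3.12 CPM in iPSC and 11.5 ± 12.2 CPM in ESC, a log2 fold change of -0.84 (adjusted p = 0.76). The other 5 ran from -0.74 for Tyrp1 to 0.07 for Rgr, and the lowest adjusted p of the 7 was 0.75. These values moved with single libraries. Without ESC day 35 they were -0.54 for Ttr, -0.51 for Pmel, -0.40 for Tyrp1, -0.09 for Mitf and -0.08 for Tyr, and Ttr was -0.46 without ESC day 18 replicate 2. Without the 2 day 18 libraries whose Eif2s3y goes against their source, Dct was -0.89, against -0.37 with them.

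The other gene lists give the setting of these values at day 35 against day 18. Of all 15202 tested genes 7.53% were called in this comparison, 690 higher and 454 lower. Whether any list held more called genes than that share was not tested. Of 18 tested genes among 20 other pigment epithelium genes, 1 rose and none fell: Rdh10, a retinol dehydrogenase, with 71.1 ± 3.53 CPM at day 35 and 30.3 ± 10.9 CPM at day 18 (log2 fold change 1.24, limma adjusted p = 0.03). Of 18 tested among 20 other melanosome genes, 2 rose, the lysosomal trafficking regulator Lyst (1.43, adjusted p = 0.042) and the ion exchanger Slc24a5 (0.99, adjusted p = 0.045), and 1 fell, Hps1, a subunit of an organelle biogenesis complex (-1.14, adjusted p = 0.028). Levels within the melanosome list differed from gene to gene. Slc45a2 and Gpr143 were under 1 CPM in all 16 libraries, and Mlana and Oca2 in 14, with Oca2 at 6.35 CPM in ESC day 35. Slc24a5 was between 8.78 and 26.2 CPM, and Rab38, a small GTPase of melanosome transport, reached 9.35 CPM in ESC day 18 replicate 2.

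None of 9 tested melanocyte and neural crest genes, 17 tested transcription factors of pigment epithelium and neural retina, or 10 choroid plexus genes was called at day 35. Abundant genes were Ednrb and Kit in the first list, Otx2, Pax6 and Rax in the second, and Slc4a5, Aqp1 and Clic6 in the third. Sox10, the factor that defines melanocytes and other crest cells, was 6.35 CPM in ESC day 35 and at most 4.00 CPM elsewhere, and was listed at 0 in 4 libraries. The melanocyte list summed to 327 CPM in ESC day 35, against 30.3 to 225 CPM in the other 15 libraries, and its part in the melanin gene values was not tested.

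Of 10 Müller glia genes, 2 rose at day 35, the water channel Aqp4 (3.86, adjusted p = 0.027) and the transporter Abca8a (2.61, adjusted p = 0.011). Aqp4 was 222 CPM in ESC day 35 and at most 29.2 CPM in any other library. Of 10 rod genes 5 rose, including the phosphodiesterase subunit Pde6a (6.76, adjusted p = 1.5e-05), and of 8 genes of dividing cells 5 fell, including Mki67 (-4.41, adjusted p = 0.041). Of 10 ciliary margin genes 2 fell, the transcription factor Zic2 (-1.70, adjusted p = 0.0092) and the opsin Opn3 (-1.58, adjusted p = 0.038).

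**Figure D4:**
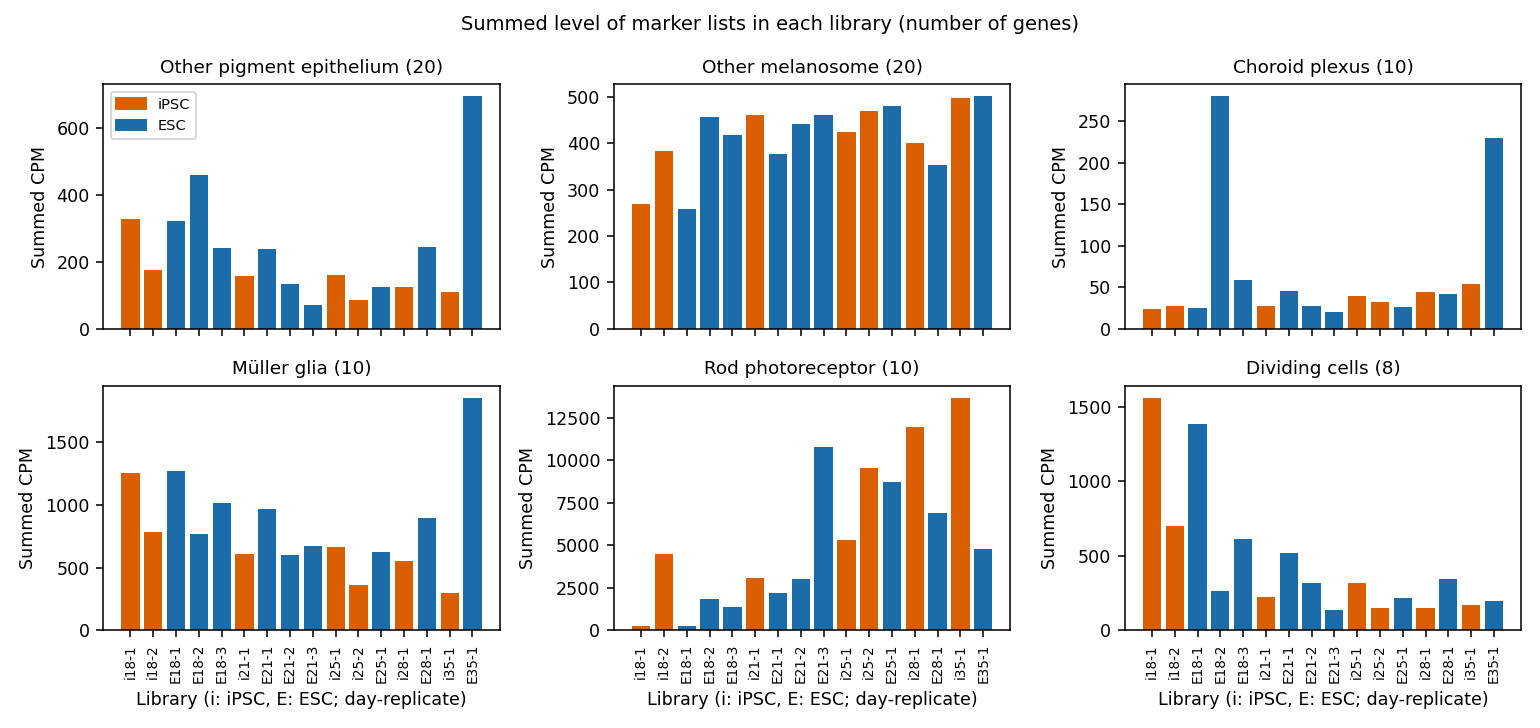
Summed CPM of 6 marker lists in each library, with iPSC in orange and ESC in blue. The choroid plexus sum stands out in ESC day 18 replicate 2 (281 CPM) and ESC day 35 (230 CPM), the pigment epithelium and Müller glia sums are highest in ESC day 35 (697 and 1853 CPM), and the rod sum is highest in iPSC day 35 at 13690 CPM.

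ESC day 35 was the highest of the 16 libraries for 5 of the 8 genes (62.5%), and for 11.6% of all tested genes. It was also the highest for 10 of the 20 other pigment epithelium genes, 6 of the 20 melanosome genes, 6 of the 10 melanocyte genes, 9 of the 10 Müller glia genes and none of the 10 rod genes. The rod sum was 13690 CPM in iPSC day 35 and 4810 CPM in ESC day 35.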

How the data were processed

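The 16 libraries came with a gene table and a pair of transcript tables. The submitters' processing notes name Trimmomatic 0.36 for trimming, kallisto 0.42.5 for quantification and the build GRCm38.p4. The authors summed transcripts to genes with tximport, scaled by length, and made CPM with edgeR, per the series design text. The deposited gene table holds transformed values (unit: score): each is the square of log2(CPM + 1), minus 1, because CPM restored that way kept a constant ratio to summed TPM across libraries in 8471 of 8665 genes (97.8%, tolerance 0.01 on the log2 ratio). The deposited transcript tables, with TPM in 1 and estimated counts in the other, cover all transcripts of 10762 genes. Of the 8 genes, Mitf, Tyr, Tyrp1 and Best1 are complete in them. Transcripts were named by GENCODE vM21, to which 65096 of 65535 (99.3%) matched. CPM columns sum to between 642418 and 885155.

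limma 3.58.1 with trend (R 4.3.3) was run on log2(CPM + 1) for 15202 genes with at least 1 CPM in at least 2 libraries, with source and day as factors, and Benjamini-Hochberg adjustment over all of them. Calls needed an adjusted p under 0.05. Fold changes on this scale understate the change of low genes. The slope test used day as a number, source and the product of both. edgeR 4.0.16 and DESeq2 1.42.0 were run on estimated counts summed per gene and rounded, for 9330 genes with enough counts. The fits were checked on simulated data. Correlations are on log2(CPM + 1), with 100000 permutations. These shuffled all libraries without regard to day or source. Their p-values therefore treat the libraries as exchangeable and independent, and can be too small where libraries are alike for such reasons.

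The 8 genes and the lists were chosen with earlier results of these data known. The named genes are all 8, the called genes of each list or its 3 most abundant where none was called, and the 3 genes most like each tested gene, without predicted models. Of these, 1 is not reported here. Other genes named (Crx, Nrl, Nr2e3, Pde6a, Pde6b, Cnga1, Eif2s3y, Rpe65, Folr1, Sox10, Rab38, Slc45a2, Gpr143, Mlana, Oca2) were chosen after their values were seen. So were the 63 relations, the CPM ratios, the comparison of ESC day 35 and ESC day 18 replicate 2 with the other libraries, and the choice of Dct at day 21 for closer description, made on its unadjusted p. Alternatives were the pseudocount, filters, rescaled CPM, a replicate block, each library left out, contrasts within a source and both count tools. Added after seeing the data was the removal of the day 18 libraries labelled replicate 1 (low Nrl) and of iPSC replicate 2 with ESC replicate 1, whose level of the Y-linked gene Eif2s3y goes against the other libraries of their source. Promoter windows are from RefSeq. Floors cover counting error only. SEs and 95% confidence intervals of fold changes come from limma and the scatter among libraries.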

Additional observations from a re-analysis of the deposited data

Results flagged for a closer look

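Single libraries stood apart from the rest of their day or source for 4 of the genes, in 5 of 32 gene and group combinations examined on log2(CPM + 1) with Dixon's ratio. The groups were taken by day or by source after the values were seen, and chance flags about 1 in 20 groups. Mitf was 7.09 CPM in ESC day 18 replicate 2, and the next day 18 library was at 2.36 CPM. Pmel was 19.7 CPM in ESC day 18 replicate 3, with the next day 18 library at 5.11 CPM. ESC day 21 replicate 1 stood apart at day 21 for Pmel (26.4 CPM, next 3.35 CPM) and for Tyrp1 (8.84 CPM, next 1.28 CPM). Rgr was 3.84 CPM in ESC day 18 replicate 2, with the next of the 9 ESC libraries at 1.42 CPM.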

How the results depend on the processing

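No member was called in any of the 6 comparisons under any alternative run. Alternatives were run on 15 single-gene fold changes, those of the 7 tested genes at day 35 and between sources and that of Dct at day 21. Of their 371 alternative values 351 kept their direction, 20 in 6 of them reversed, and the lowest adjusted p was 0.06. Within iPSC, the day 35 log2 fold change was -0.19 for Mitf, -0.57 for Tyr, -0.09 for Tyrp1 and -0.31 for Pmel. That of Dct at day 35 was 1.11 within ESC, and 0.35 without ESC replicate 1 and iPSC replicate 2 of day 18. That of Rgr, iPSC over ESC, was -0.10 with a pseudocount of 0.1 and -0.03 without those 2 libraries. Leaving out 1 library gave ranges at day 35 of -0.46 to 1.75 for Mitf, -0.48 to 2.70 for Tyr, -0.11 to 2.37 for Tyrp1, -0.32 to 2.10 for Pmel and -0.91 to 0.74 for Dct, and 1.17 to 2.36 for Dct at day 21. Between sources they were -1.75 to -0.46 for Ttr, -0.68 to -0.09 for Mitf, -0.82 to -0.08 for Tyr and -0.14 to 0.23 for Rgr. The causes of these reversals were not tested.

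Of 13 correlations of same-numbered libraries' deviations, which ran from 0 to 0.641, 10 were above 0.1 and 3 were not. The numbers thus did not meet the rule for pairing (every correlation above 0.1), and whether some mark shared batches was not tested. Deviations within a group sum to 0, so the 13 values are not independent. Those between iPSC day 18 and iPSC day 25 (0.381 each) are equal by construction. With the replicate block the fold change of Dct at day 35 was 0.34 and that of Rgr between sources was -0.03, no member was called, and calls over all genes were 2943 at day 35, 2423 at day 28 and 2159 at day 25, against 1144, 88 and 6 without it. Over all genes, the alternatives other than leaving out 1 library called between 76 and 2943 genes at day 35, 0 and 2423 at day 28, 0 and 2159 at day 25 and 0 and 108 at day 21, and leaving out 1 library gave between 290 and 1809 at day 35. Depth limits Best1 and the lowest Rgr and Tyr values, and day 28 and day 35 have 1 library per source.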
